A study of Homo sapiens with 4 samples.

Results

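Scattered imprinted loci, each tied to a single gene or gene pair, were followed through CpG methylation in the established human embryonic stem cell line H9. The loci were fixed as 8 intervals of hg19: DIRAS3 on chromosome 1 (68510000 to 68519000), ZDBF2 on chromosome 2 (207110000 to 207140000), NAP1L5 on chromosome 4 (89615000 to 89621000), VTRNA2-1 on chromosome 5 (135412000 to 135419000), TRAPPC9/PEG13 on chromosome 8 (141105000 to 141113000), INPP5F on chromosome 10 (121575000 to 121581000), RB1 intron 2 on chromosome 13 (48890000 to 48897000) and WRB on chromosome 21 (40755000 to 40760000). Members were the cytosines of these intervals covered by 5 or more reads in each of the 4 libraries (the files' context coverage), and they numbered 297 of 907719 such cytosines outside chromosome Y. They fell unevenly, with 117 at TRAPPC9/PEG13, 82 at RB1, 47 at DIRAS3, 41 at VTRNA2-1, 6 at ZDBF2, 4 at NAP1L5 and 0 at INPP5F and at WRB. Both intervals without a member had cytosines with at least 5 reads in single libraries, and these are described apart.

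The naive libraries came from B3GALT5-/- (KO) cells after conversion in 2iLAF and from wild-type (WT) cells after conversion in 5iLAF. The primed libraries came from KO cells and from WT cells, both kept in basal medium. B3GALT5 encodes a galactosyltransferase that builds glycosphingolipids of the cell surface. Naive cells stand for the earlier, preimplantation-like form of pluripotency and primed cells for the later form in which human embryonic stem cells are usually grown. The KO and WT naive libraries differed in medium as well as in genotype, so these effects cannot be told apart, and each group was 1 library, so no difference between groups has a replicate check.

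Genomic imprinting marks one parental copy of a gene with DNA methylation laid down in the egg or the sperm and kept through the wave of demethylation after fertilization. A tissue that keeps its imprints therefore shows intermediate methylation at such a region, with one copy methylated and the other not. Conversion of human cells to the naive state in kinase inhibitor media is known to lower methylation at imprinted regions, and primed lines are known to gain methylation at some of them. The zinc finger protein ZFP57 binds the methylated copy at a core motif, TGCCGC, and helps keep it methylated.

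The depth was moderate. The KO naive library listed 2340330 cytosines outside chromosome Y at a median of 13 reads, the WT naive library 2018895 at 8 reads, the KO primed library 2204054 at 8 reads and the WT primed library 2109788 at 7 reads. At the 297 members the medians were 24 reads in KO naive, 13 in WT naive, 13 in KO primed and 12 in WT primed. No library listed a cytosine with 0 methylated reads, so a site that lost all methylation leaves the table and the levels given are those of sites with some methylation. Of the members, 24 lay on the plus strand and the rest on the minus strand. Over all cytosines of the whole table the mean level was 58.9% in KO naive, 57.7% in WT naive, 81.2% in KO primed and 80.2% in WT primed.

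RefSeq promoter entries of 3 genes (GRCh38.p14, 250 bases before to 50 after a transcript start) could be tied to cytosines of the files, because the spacing of their CpGs matched the spacing of the listed cytosines. They are shown since they are the stretches of these loci where the measured cytosines can be read in sequence. Capitals mark CpGs at which at least 1 library listed a cytosine. The first is the DIRAS3 promoter (chr1:68050578-68050877, minus strand), the second a downstream start of INPP5F (chr10:119819019-119819318, plus strand) and the third a downstream start of WRB, named GET1 in RefSeq (chr21:39387531-39387830, plus strand).
DIRAS3: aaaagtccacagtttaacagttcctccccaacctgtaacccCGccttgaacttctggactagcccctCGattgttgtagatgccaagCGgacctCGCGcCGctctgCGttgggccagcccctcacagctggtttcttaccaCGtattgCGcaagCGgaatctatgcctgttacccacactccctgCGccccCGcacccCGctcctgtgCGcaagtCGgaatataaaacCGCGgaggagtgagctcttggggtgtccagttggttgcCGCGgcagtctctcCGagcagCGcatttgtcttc
INPP5F: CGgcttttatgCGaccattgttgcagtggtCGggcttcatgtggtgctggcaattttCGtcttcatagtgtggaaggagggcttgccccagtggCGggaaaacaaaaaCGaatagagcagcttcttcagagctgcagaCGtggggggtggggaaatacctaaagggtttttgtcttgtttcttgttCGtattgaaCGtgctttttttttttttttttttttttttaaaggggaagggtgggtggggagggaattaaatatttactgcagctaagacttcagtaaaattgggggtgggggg
WRB: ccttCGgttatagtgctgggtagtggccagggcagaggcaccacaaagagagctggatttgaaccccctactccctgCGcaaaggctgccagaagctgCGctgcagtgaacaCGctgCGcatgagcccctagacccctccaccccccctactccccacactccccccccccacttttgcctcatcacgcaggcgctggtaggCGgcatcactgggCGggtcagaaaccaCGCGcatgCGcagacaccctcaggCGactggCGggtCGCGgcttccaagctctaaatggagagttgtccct
The DIRAS3 entry took 37 of 37 listed cytosines in its span at its CpGs, against 2 for its next best placement. The INPP5F entry took 9 of 9, against 1, and the WRB entry 18 of 18, against 1. TGCCGC or its reverse complement GCGGCA occurred at bases 264 and 268 of the DIRAS3 sequence, on opposite strands and sharing 2 bases, and once in the WRB sequence at base 202. It did not occur in the INPP5F sequence. Of all 35116 promoter entries, 16.7% held the motif on either strand and 2.75% held it at least 2 times. The promoter entry of NAP1L5 held 2 matches and 1 of the ZDBF2 entries held 1, but neither entry was placed on the files' cytosines.

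In every interval with members, the naive library was less methylated than the primed library of its genotype. The mean over members was lower in KO naive than in KO primed cells in 6 of 6 intervals, with differences between -39.4 and -12.8 percentage points. It was lower in WT naive than in WT primed cells in 6 of 6, with differences between -42.8 and -6.71 points. Over all 297 members the mean level was 56.2% ± 22.7 in KO naive, 52.6% ± 25.2 in WT naive, 83.9% ± 22.0 in KO primed and 81.6% ± 24.4 in WT primed (SD over cytosines). Cytosines were compared one by one with a two-sided Fisher's exact test on methylated and unmethylated reads, adjusted by Benjamini-Hochberg over all 907719 cytosines and called at an adjusted p under 0.05 with a difference of at least 25 points. This test compares the reads of 2 libraries, not the conditions. In KO naive against KO primed, 66 of 297 members were called lower, where 18.2% of all cytosines were, and 0 were called higher, where 0.242% of all were. In WT naive against WT primed, 67 members were called lower, against 16.2% of all cytosines, and 0 higher, against 0.442%. At an unadjusted p under 0.05 with a difference of at least 25 points, the members higher were 0 in both comparisons. Those lower were 111 in KO and 102 in WT cells. The share of all cytosines passing this unadjusted rule was not computed. With read counts scaled down for the excess spread seen between both strands of the same CpG, 0 members were called in either comparison. Of all cytosines, 0.132% were then called lower in KO and 0.098% in WT cells, so the 0 is not particular to the members. The shares of members called lower, 22.2% in KO and 22.6% in WT cells, lie near those of the whole table, and the median interval difference, over the 5 intervals with at least 5 members, was -19.0 points in KO and -28.03 points in WT cells, against medians of -20.3 and -20.6 points over 51144 tiles of 1 kb.

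**Figure D1:**
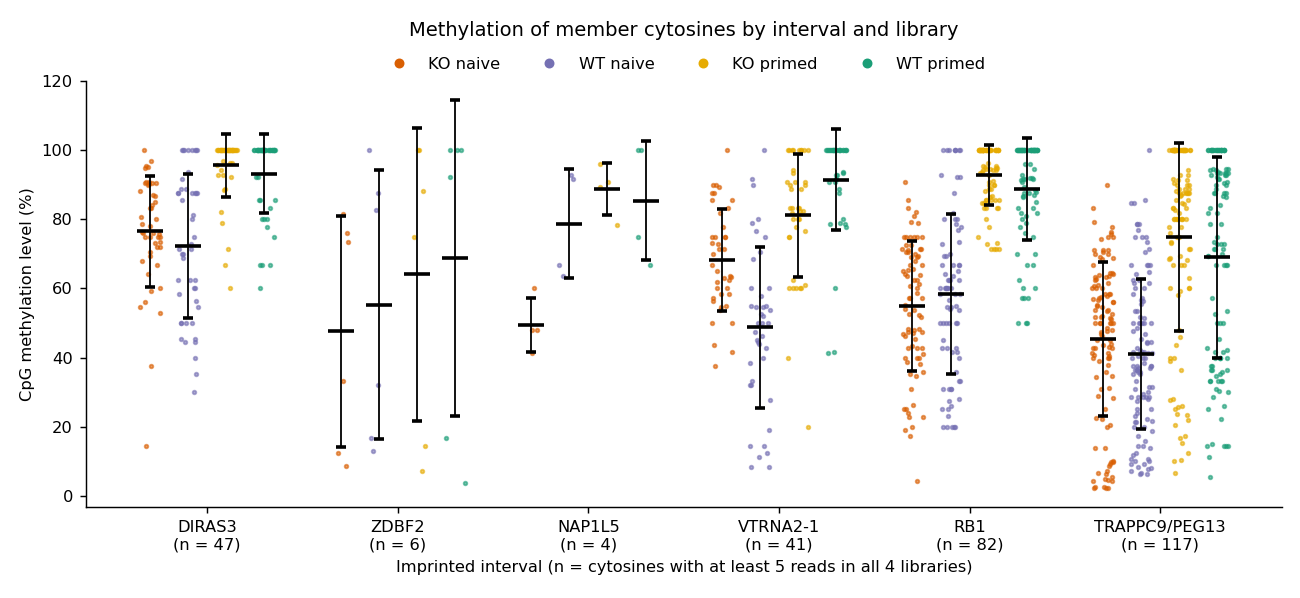
Each point is the methylation level (%) of 1 member cytosine in 1 library, by interval; bars are the mean and whiskers 1 SD over cytosines, which can reach past 100%. At RB1 both primed libraries stand near 90% while both naive libraries stand between 50 and 60%, and at VTRNA2-1 the WT naive library (48.7%) is below the KO naive library (68.3%).

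Over the members, the primed libraries of both genotypes averaged over 85% at DIRAS3, NAP1L5 and RB1. The share of members at 25 to 75% was 70.7% in KO naive and 65.3% in WT naive, but 17.5% in KO primed and 24.9% in WT primed. The whole table had 59.6% of its cytosines in that range in KO naive, 55.4% in WT naive, 23.6% in KO primed and 25.3% in WT primed. At 11 other imprinted intervals, with 381 cytosines (among them the H19 upstream region, KCNQ1OT1, SNRPN, PEG3, MEST and PEG10), the shares were 65.6% in KO naive, 57.5% in WT naive, 56.4% in KO primed and 42.5% in WT primed. The median interval mean in KO primed cells was 81.1% over the 5 intervals with at least 5 members and 47.6% over the 11 other intervals. In WT primed cells it was 88.8% and 53.6%. The 11 other intervals spread widely, from 27.2 to 94.6% in KO primed and from 37.7 to 98.2% in WT primed. In each primed library 7 of these 11 averaged 25 to 75%. NNAT averaged 94.6% in KO primed and 95.4% in WT primed, the MEG3 intergenic region 92.3% and 98.2%, and PEG3 84.8% and 86.3%. A high primed level was thus not limited to the intervals of the members. The difference between these sets of intervals was not tested.

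DIRAS3 encodes a small GTPase of the Ras family that restrains growth and is expressed from the paternal copy. Its 47 members averaged 76.6% ± 16.1 in KO naive, 72.3% ± 20.7 in WT naive, 95.6% ± 9.2 in KO primed and 93.1% ± 11.5 in WT primed. Over all reads of the members the level was 78.7% (Wilson 95% interval 76.2 to 81.1%) in KO naive, 71.5% (67.3 to 75.4%) in WT naive, 96.6% (95.1 to 97.6%) in KO primed and 94.2% (91.4 to 96.2%) in WT primed. Both naive libraries were thus below both primed libraries, yet they kept the highest mean of the intervals with at least 5 members.

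The difference at DIRAS3 was modest at most cytosines. In KO naive cells 43 of 47 members were lower than in KO primed cells, with a mean difference of -19.0 points and 6 called. In WT naive cells 36 were lower and 7 higher than in WT primed cells, with a mean difference of -20.9 points and 3 called. The called cytosine with the largest difference in KO cells, at position 68513064, had 1 methylated of 7 reads in KO naive and 23 of 23 in KO primed (adjusted p = 0.00036, Fisher's exact test). In WT cells it was position 68512241, with 3 of 10 reads in WT naive and 9 of 9 in WT primed (adjusted p = 0.0246, Fisher's exact test).

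The level of DIRAS3 in naive cells also differed along the interval. The tile from 68516001, which holds the printed promoter, had 16 members at 79.0% in KO naive, 73.0% in WT naive, 97.5% in KO primed and 96.1% in WT primed. The tile from 68517001 had 23 members at 79.3%, 76.4%, 94.3% and 90.2% in the same libraries. About 4 kb away, the tile from 68512001 was lower in naive cells, counted over each library's own cytosines: 60.4% ± 23.4 over 26 cytosines in KO naive, 50.9% ± 15.1 over 18 in WT naive, 92.7% ± 7.4 over 8 in KO primed and 100% over 4 in WT primed. At the CpGs in capitals in the promoter itself, each library's own cytosines averaged 83.2% ± 13.7 in KO naive (21 cytosines), 76.5% ± 18.2 in WT naive (12), 96.8% ± 5.5 in KO primed (21) and 91.1% ± 17.6 in WT primed (14).

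NAP1L5 is a gene without introns that lies inside HERC3 and is expressed from the paternal copy. Its 4 members lay within 1 tile. Position 89619338 had 7 of 17 reads methylated in KO naive, 8 of 12 in WT naive, 17 of 19 in KO primed and 13 of 13 in WT primed. Position 89619394 had 12 of 25 in KO naive, 11 of 12 in WT naive, 24 of 25 in KO primed and 19 of 19 in WT primed. The KO naive library was the lowest of the 4 at each member. Its mean was 49.3% ± 7.8, against 88.7% ± 7.5 in KO primed, and 2 of 4 members were called lower, the larger of these differences being at 89619338 (adjusted p = 0.0266, Fisher's exact test). The WT naive library stood at 78.7% ± 15.7 and the WT primed library at 85.4% ± 17.2, a difference of -6.71 points with 0 of 4 members called. Over each library's own cytosines with at least 5 reads the level was 51.1% ± 22.1 in KO naive (7 cytosines), 82.97% ± 16.6 in WT naive (5), 89.5% ± 6.7 in KO primed (5) and 65.7% ± 34.4 in WT primed (6), so the order of the WT libraries turned with the cytosines included. Neighbouring members can lie on the same reads, so these 4 cytosines are not independent measurements.

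VTRNA2-1 is a short noncoding RNA related to the vault RNAs whose promoter is imprinted in some people and unmethylated on both copies in others. It was the interval where the naive libraries of the genotypes stood farthest apart among those with at least 5 members. Its 41 members averaged 68.3% ± 14.8 in KO naive, 48.7% ± 23.3 in WT naive, 81.1% ± 17.8 in KO primed and 91.5% ± 14.6 in WT primed. Over all reads the level was 67.1% (Wilson 95% interval 63.3 to 70.7%) in KO naive, 48.5% (44.8 to 52.2%) in WT naive, 82.7% (78.7 to 86.2%) in KO primed and 90.1% (87.0 to 92.5%) in WT primed.

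In WT naive cells 37 of 41 members were lower than in WT primed cells, with a mean difference of -42.8 points, and 17 were called. In KO naive cells 32 of 41 were lower than in KO primed cells, with a mean difference of -12.8 points, and 0 were called. These counts of calls also depend on depth. Median reads per member were 14 in KO naive and 9 in KO primed, but 18 in WT naive and 12 in WT primed. Restricted to the 12 members with at least 10 reads in every library, the genotypes lay closer together. The mean difference was then -28.6 points for the WT pair of libraries and -18.1 points for the KO pair. The called cytosine with the largest difference, at 135415307, had 1 of 12 reads methylated in WT naive and 12 of 12 in WT primed (adjusted p = 0.000364, Fisher's exact test). The tile from 135415001 had 17 members at 66.8% in KO naive, 40.7% in WT naive, 73.9% in KO primed and 90.3% in WT primed. The tile from 135416001 had 21 members at 70.3%, 51.0%, 85.3% and 92.2% in the same libraries. Both tiles were past the rule of size in WT naive against WT primed (a mean difference of 25 points or more, with 80% or more of a tile's cytosines on that side, and no p-value), and neither was in KO naive against KO primed. Whether the naive minus primed difference itself differed between the genotypes was not tested.

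RB1 encodes the retinoblastoma protein, which holds back entry into S phase, and its intron 2 holds an imprinted CpG island that arose from a processed pseudogene. Here the contrast between the states was wide in both genotypes. The 82 members averaged 54.9% ± 18.8 in KO naive, 58.3% ± 23.2 in WT naive, 92.8% ± 8.8 in KO primed and 88.8% ± 14.7 in WT primed. Over all reads the level was 55.3% (Wilson 95% interval 53.1 to 57.6%) in KO naive, 57.0% (53.9 to 60.1%) in WT naive, 92.6% (90.9 to 94.0%) in KO primed and 91.6% (89.97 to 92.9%) in WT primed. In KO naive cells 80 of 82 members were lower than in KO primed cells, with a mean difference of -37.9 points, and 37 were called. In WT naive cells 66 were lower than in WT primed cells, with a mean difference of -30.5 points, and 24 were called.

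The naive levels at RB1 differed along the intron. The tile from 48891001 had 23 members at 38.1% in KO naive, 53.5% in WT naive, 93.6% in KO primed and 82.7% in WT primed. The tile from 48893001 had 44 members at 62.9%, 59.3%, 91.4% and 93.4% in the same libraries, and the tile from 48895001 had 11 members at 64.1%, 64.7%, 95.2% and 91.1%. These 3 tiles were past the rule of size in KO naive against KO primed, and the last 2 also in WT naive against WT primed. At position 48891103, the called cytosine with the largest difference in KO cells, 4 of 23 reads were methylated in KO naive and 7 of 7 in KO primed (adjusted p = 0.00264, Fisher's exact test). At 48893209, that of WT cells, 3 of 13 reads were methylated in WT naive and 18 of 18 in WT primed (adjusted p = 0.000269, Fisher's exact test). The tile from 48892001 held no member, and each library's own cytosines there were lower in the primed libraries than elsewhere in the intron, at 56.4% ± 18.1 in KO naive (16 cytosines), 31.7% ± 19.2 in WT naive (16), 69.8% ± 23.9 in KO primed (22) and 59.6% ± 21.5 in WT primed (7). The 18 RB1 members on the plus strand averaged 43.3% in KO naive, 50.3% in WT naive, 92.7% in KO primed and 74.5% in WT primed, and the 64 on the minus strand 58.2%, 60.6%, 92.8% and 92.8%. All plus-strand members lay between 48890958 and 48891174, while most minus-strand members lay in the tiles from 48893001 and 48895001. These strand means therefore mix strand with position and are not a comparison of like with like. The part of strand in these levels was not tested.

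**Figure D2:**
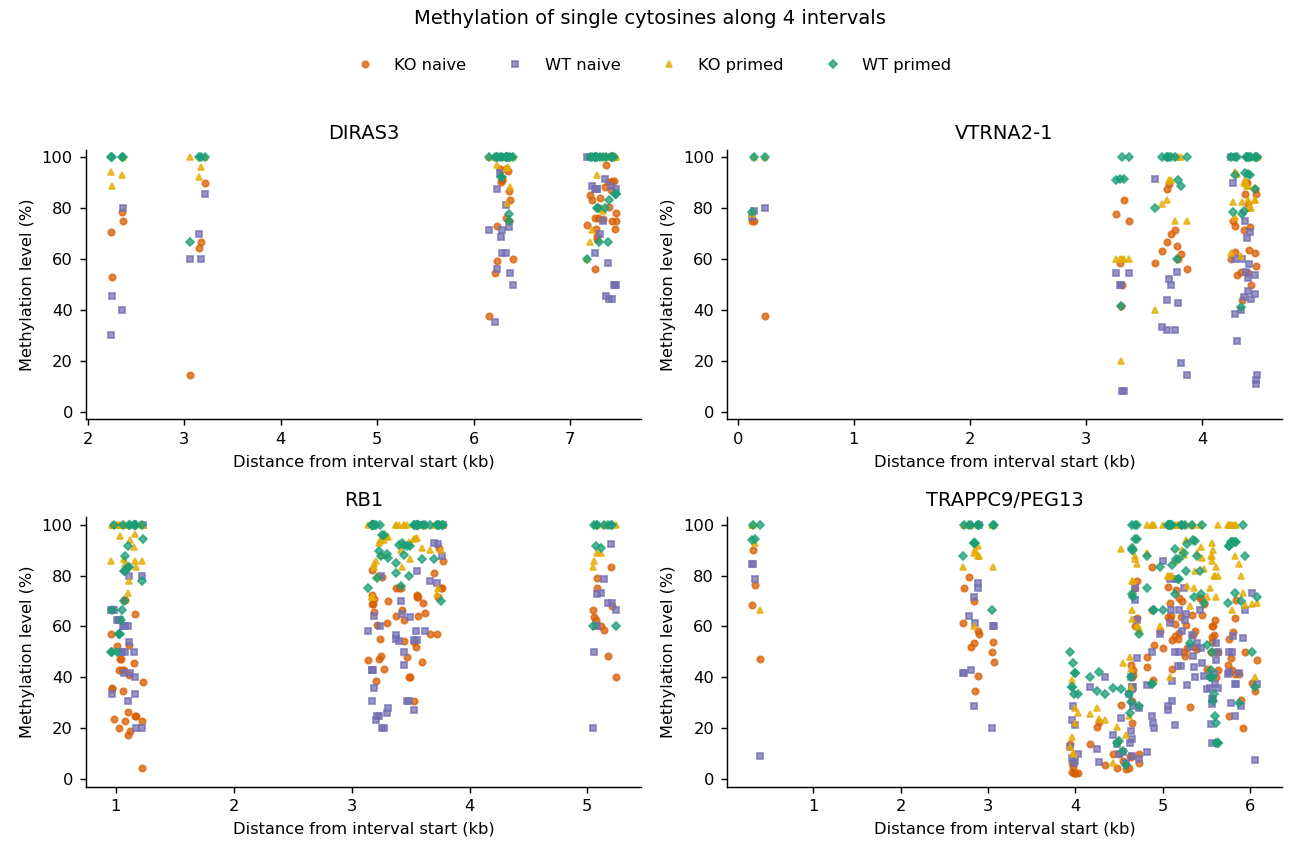
Methylation level (%) of member cytosines against the distance (kb) from the start of the interval, for the 4 intervals with at least 41 members, with a marker for each library. At TRAPPC9/PEG13 a stretch near 4 kb has points at or below 50% in all 4 libraries, and WT primed has low points again between 5 and 6 kb.

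PEG13 is a noncoding RNA expressed from the paternal copy inside an intron of TRAPPC9, whose product helps tether vesicles. This interval had the most members of the 8. Its 117 members averaged 45.4% ± 22.3 in KO naive, 40.9% ± 21.7 in WT naive, 74.8% ± 27.1 in KO primed and 69.0% ± 29.1 in WT primed. Over all reads the level was 44.5% (Wilson 95% interval 42.8 to 46.1%) in KO naive, 40.0% (37.9 to 42.2%) in WT naive, 66.3% (64.0 to 68.4%) in KO primed and 68.7% (66.4 to 71.0%) in WT primed. In KO naive cells 112 of 117 members were lower than in KO primed cells, with a mean difference of -29.4 points, and 21 were called. In WT naive cells 101 were lower than in WT primed cells, with a mean difference of -28.03 points, and 22 were called. Each library's own cytosines with at least 5 reads averaged 39.3% in KO naive (200 cytosines) and 40.5% in WT naive (159). In the primed libraries they averaged 62.6% in KO (190) and 63.1% in WT (172), below the means over members. These are different cytosines in each library, so the means are not a comparison of like with like.

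Among the TRAPPC9/PEG13 tiles with at least 5 members, the means were lowest in the middle of the interval. The tile from 141108001 had 10 members at 18.4% in KO naive, 24.7% in WT naive, 42.2% in KO primed and 55.2% in WT primed. The tile from 141109001 had 34 members at 32.1%, 28.5%, 59.1% and 55.1% in the same libraries. Over each library's own cytosines this tile was lower in primed cells, at 43.0% in KO primed (74 cytosines) and 46.1% in WT primed (69). In the naive libraries it was then at 29.4% in KO (70) and 25.8% in WT (43). Around both middle tiles, the tile from 141107001 had 10 members at 58.2% in KO naive, 60.4% in WT naive, 88.9% in KO primed and 96.6% in WT primed. The tile from 141110001 had 56 members at 54.4%, 46.3%, 87.4% and 73.8%. The side tile from 141110001 was not uniform in WT primed (SD 27.1 points over cytosines), where position 141110542 had 6 of 15 reads methylated and position 141110637 had 1 of 7. The naive library was lower than the primed library of its genotype in all 4 tiles. The other 3 tiles were past the rule of size in both genotypes, and the tile from 141108001 in WT cells only among the comparisons of naive with primed. The called cytosine with the largest difference in KO cells, at 141110753, had 5 of 20 reads methylated in KO naive and 5 of 5 in KO primed (adjusted p = 0.0304, Fisher's exact test). In WT cells, position 141105390 had 1 of 11 reads in WT naive and 13 of 13 in WT primed (adjusted p = 0.000242, Fisher's exact test).

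ZDBF2 encodes a zinc finger protein expressed from the paternal copy. Unlike the other loci, the region upstream of it is known to carry its methylation on the paternal copy in somatic tissue. The interval is 30 kb long, and its 6 members do not form 1 unit. The 3 members of the tile from 207136001 averaged 63.6% in KO naive, 67.4% in WT naive, 87.7% in KO primed and 97.4% in WT primed. Among them, position 207136185 had 7 of 21 reads methylated in KO naive, 8 of 25 in WT naive, 12 of 16 in KO primed and 12 of 13 in WT primed. It was the only ZDBF2 member called in any of the 4 comparisons, as lower in WT naive than in WT primed (adjusted p = 0.0068, Fisher's exact test). The members at 207138985 and 207139042 were low in all 4 libraries. The second of them had 2 of 23 reads methylated in KO naive, 3 of 23 in WT naive, 2 of 28 in KO primed and 1 of 27 in WT primed. The mean over all 6 members was 47.6% ± 33.4 in KO naive, 55.3% ± 39.0 in WT naive, 64.1% ± 42.4 in KO primed and 68.8% ± 45.7 in WT primed, a spread larger than any difference between the libraries. Weighted by reads, the difference between KO naive and KO primed was -2.32 points in place of -16.6, and that between WT naive and WT primed -1.38 points in place of -13.5.

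INPP5F encodes a phosphoinositide phosphatase, and a shorter transcript from a downstream start is the imprinted one. It had 51 cytosines listed in at least 1 library and 44 with at least 5 reads in at least 1, but 0 in all 4. Each library's own cytosines with at least 5 reads averaged 9.2% ± 10.1 in KO naive (29 cytosines), 47.4% ± 13.4 in WT naive (7), 34.5% ± 16.3 in KO primed (25) and 36.9% ± 13.1 in WT primed (4). These are different cytosines, so the means are not a comparison of like with like. Over all their reads the level was 7.13% (Wilson 95% interval 5.52 to 9.17%) in KO naive, 48.1% (37.4 to 58.9%) in WT naive, 33.0% (27.6 to 38.8%) in KO primed and 34.0% (22.2 to 48.3%) in WT primed. Most of the KO naive cytosines lay between 121578118 and 121578332, where WT naive listed none, KO primed had 1 cytosine with at least 5 reads (1 of 8 reads methylated) and WT primed had at most 2 reads per cytosine. The low KO naive mean therefore rests largely on cytosines that the other libraries did not list at that depth. Of the 29 KO naive cytosines, 19 were not listed in KO primed, and 7 of these had a listed KO primed neighbour within 25 bases with at least 5 reads. For unlisted cytosines, a site without methylated reads and a site without reads cannot be told apart.

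The KO naive library also had the deepest reads there, with a median of 28 per own cytosine, against 11 in WT naive, 9 in KO primed and 12 in WT primed. The 10 cytosines with at least 5 reads in both KO libraries averaged 15.4% ± 12.4 in KO naive and 35.2% ± 24.7 in KO primed, and 1 was called, at 121577500, with 2 of 32 reads methylated in KO naive and 5 of 5 in KO primed (adjusted p = 0.00133, Fisher's exact test). With unlisted cytosines set to 0 methylated reads at the coverage of their nearest neighbour, 21 cytosines averaged 9.91% in KO naive and 22.9% in KO primed. The background for the 10 shared cytosines was 14.3% of cytosines called lower. The 3 cytosines shared by the naive libraries averaged 5.29% ± 1.49 in KO naive and 57.6% ± 10.5 in WT naive. Of these, the cytosine at 121577685, was called, with 1 of 28 reads methylated in KO naive and 7 of 11 in WT naive (adjusted p = 0.0398, Fisher's exact test), where 0.188% of all cytosines were called lower in that pairing. Of the 25 cytosines with at least 5 reads in KO primed, 15 (60%) were not listed in KO naive, against 8.19% of such cytosines in the whole table. At the CpGs in capitals in the printed INPP5F sequence, the levels lay closer together: 24.0% ± 11.1 over 7 cytosines in KO naive, 25% at 1 cytosine in WT naive, 27.95% ± 10.2 over 8 in KO primed and 35.9% ± 15.8 over 3 in WT primed.

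WRB (GET1) encodes a receptor of the endoplasmic reticulum for tail-anchored membrane proteins. Of its 42 listed cytosines 34 had at least 5 reads in at least 1 library and 0 in all 4. They fell into separate stretches. In the tile from 40757001, 11 cytosines of WT naive averaged 25.5% ± 7.8, with 3 to 6 of 8 to 15 reads methylated, and 14 cytosines of WT primed averaged 90.2% ± 14.02. In KO naive 3 cytosines there had 1 methylated read of 5 or 6 each, and KO primed had none with at least 5 reads. The 10 cytosines with at least 5 reads in both WT libraries averaged 25.04% ± 8.1 in WT naive and 92.5% ± 13.4 in WT primed. All 10 were lower in WT naive and 7 were called, where 14.6% of all cytosines were called lower in that pairing. The one with the largest difference, at 40757718, had 3 of 14 reads methylated in WT naive and 8 of 8 in WT primed (adjusted p = 0.0125, Fisher's exact test). Neighbouring cytosines of this stretch can lie on the same reads, so these 10 are not independent measurements.

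The printed WRB start lies in another stretch, in the tile from 40759001. There 16 cytosines of KO primed averaged 50.8% ± 13.9, with 28.6 to 75% at single cytosines, which is intermediate. In KO naive 3 cytosines averaged 10.2% ± 1.6, with 1 or 2 of 9 to 18 reads methylated. WT primed had 1 cytosine there, with 1 of 6 reads methylated, and WT naive had none with at least 5 reads. Of the 16 cytosines of KO primed 15 (93.8%) were not listed in KO naive, and 3 of these had a listed neighbour within 25 bases, with 18 reads. For the rest, a site without methylated reads and a site without reads cannot be told apart.

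**Figure D3:**
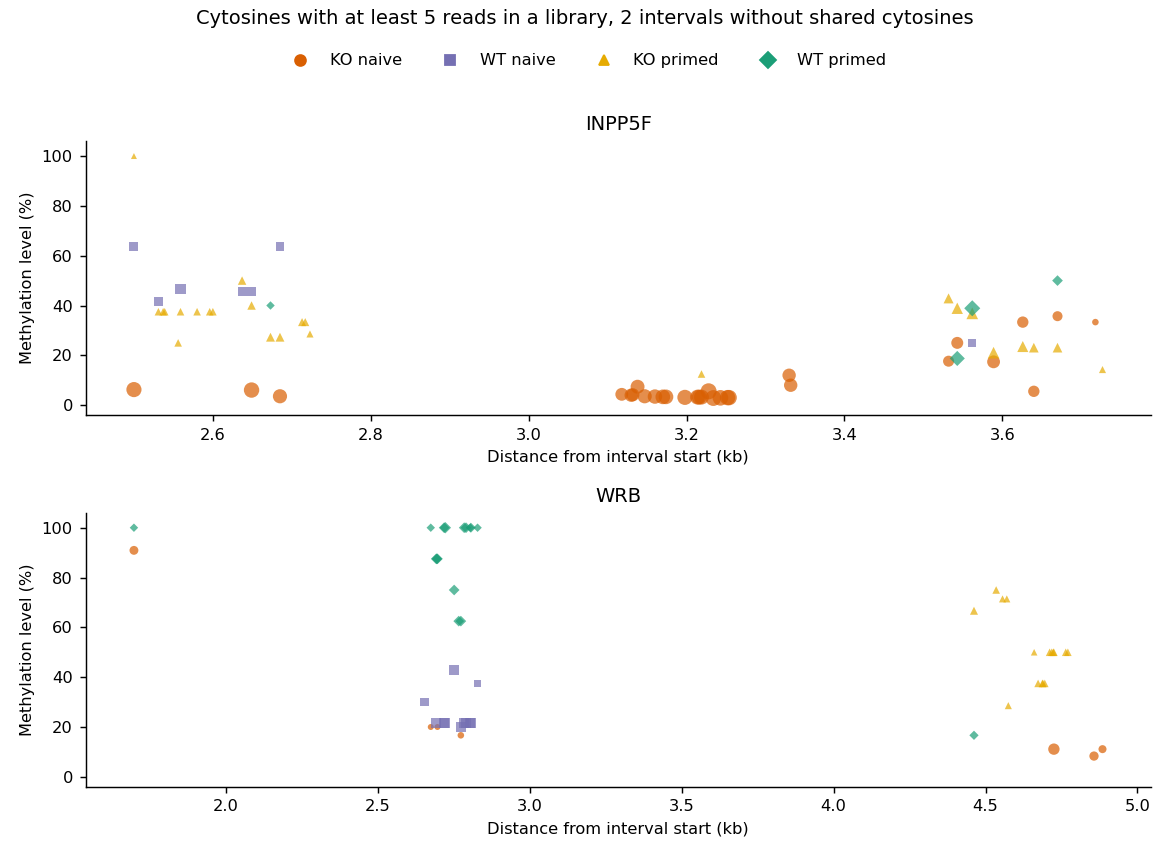
Methylation level (%) of every cytosine with at least 5 reads in a library, against the distance (kb) from the start of the INPP5F and WRB intervals; marker size grows with the number of reads. At INPP5F many KO naive points lie below 10% in a stretch with almost no points of the other libraries, and at WRB the WT naive points (25.5%) and WT primed points (90.2%) of the tile from 40757001 do not overlap.

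Between the genotypes the differences went both ways. In the primed state, the difference KO primed minus WT primed ran between -10.4 and 5.84 points over the 6 intervals with members, below 0 in 2 and above 0 in 4. These signs were not stable. With at least 10 reads in every library DIRAS3 was at -1.22, RB1 at -0.737 and VTRNA2-1 at 0.489 points, and with levels weighted by reads TRAPPC9/PEG13, the highest at 5.84 points, was at -2.45 points. In that comparison 0 members were called lower, where 0.103% of all cytosines were, and 1 was called higher, where 0.216% were. The called cytosine was 141109518 at TRAPPC9/PEG13, with 29 of 32 reads methylated in KO primed and 6 of 17 in WT primed (adjusted p = 0.0356, Fisher's exact test). At an unadjusted p under 0.05 with a difference of at least 25 points, 3 members were lower and 23 higher in KO primed. The share of all cytosines passing this was not computed. The median interval difference was 2.47 points, against 0.662 points over all tiles, and became -0.737 with at least 10 reads in every library. In this comparison 0 of 11 member tiles were past the rule of size in either direction, where 0.8% of all tiles were lower and 1.54% higher.

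In the naive state, the difference KO naive minus WT naive ran between -29.4 and 19.6 points, below 0 in 3 intervals and above 0 in 3. Of the members 0 were called lower, where 0.218% of all cytosines were, and 1 higher, where 0.391% were. This was 48893257 at RB1, with 23 of 29 reads methylated in KO naive and 3 of 15 in WT naive (adjusted p = 0.0435, Fisher's exact test). At an unadjusted p under 0.05 with a difference of at least 25 points, 9 members were lower and 26 higher in KO naive. The share of all cytosines passing this was not computed. VTRNA2-1 held the difference above 0 with the largest size, 19.6 points, with 33 of 41 members higher in KO naive and 0 called. It was 10.9 points over the 12 members with at least 10 reads in every library. Its tile from 135415001 was the 1 of 11 member tiles past the rule of size, where 2.21% of all tiles were lower and 3.33% higher. Over all tiles the 5th and 95th percentiles of this difference were -19.9 and 22.6 points, so the VTRNA2-1 difference lay between them. The 11 other imprinted intervals ran between -13.5 and 18.0 points. NAP1L5 held the difference below 0 with the largest size, -29.4 points, with 4 of 4 members lower in KO naive and 0 called. The other intervals were closer: DIRAS3 differed by 4.31 points (9.23 with at least 10 reads in every library), TRAPPC9/PEG13 by 4.42, RB1 by -3.44 (2.17 with that minimum) and ZDBF2 by -7.75.

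**Figure D4:**
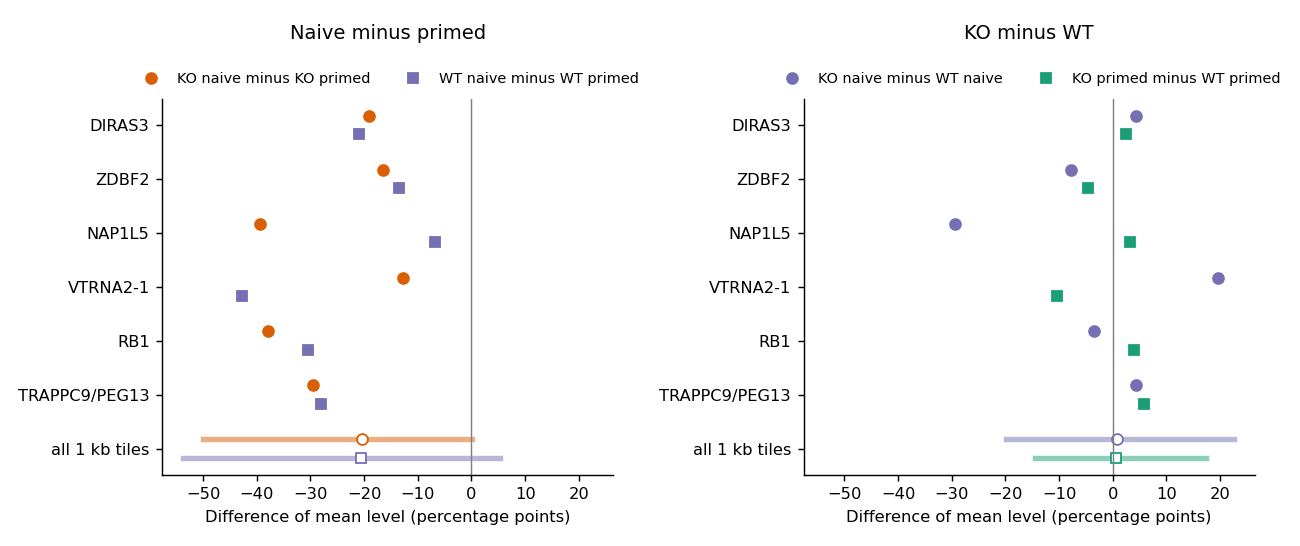
Difference of the mean level (percentage points) per interval, naive minus primed on the left and KO minus WT on the right, with the median (open marker) and the 5th to 95th percentiles (band) of all 51144 tiles below. All naive minus primed points lie below 0. On the right, VTRNA2-1 (19.6 points) and NAP1L5 (-29.4 points) stand farthest from 0 between the naive libraries. The band of all tiles there runs from -19.9 to 22.6 points, so VTRNA2-1 lies inside it.

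Read against all 1 kb tiles, 6 of the 11 member tiles with at least 5 cytosines were past the rule of size as lower in KO naive than in KO primed, where 36.2% of all tiles were. In WT naive against WT primed it was 8 of 11, where 36.8% were. None of the 11 was higher in either comparison, where 0.162% and 0.536% of all tiles were. At the 11 other imprinted intervals the median interval difference was -15.7 points in KO naive against KO primed and -22.8 points in WT naive against WT primed. The 4 comparisons share libraries, so their values stand side by side and are not independent of each other.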

How the data were processed

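Bisulfite sequencing libraries were made with a methylation capture kit from genomic DNA of 4 samples, and the labels' protocols state a conversion of 99% from spiked-in phage DNA. Positions follow hg19 (GRCh37), per the submitters' processing notes, and neither aligner nor caller, nor the handling of duplicates, is given in the sources used here. Per the file headers, the coverages are raw read counts for each cytosine and strand, in 1 table for each library. The deposited methylation level is a fraction, and levels here are methylated over context coverage counts, in percent. Rows with 0 methylated reads were absent from all 4 tables.

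Cytosines were kept by strand, chromosome Y was left out, and interval means gave each cytosine equal weight. SD values are over cytosines, not replicates, and neighbouring cytosines share reads. Wilson intervals cover counting error only, since reads are not independent molecules. Fisher's exact tests and tiles of 1 kb (at least 5 cytosines) were computed with Python 3.11.15, pandas 2.3.3, numpy 2.4.6, scipy 1.17.1 and numba 0.67.0, and the test was tested on simulated data. The simulated reads were independent, so the simulation does not show how the calls behave under the excess spread between strands seen here. The text names all 8 intervals, tiles with at least 5 cytosines, the called cytosine with the largest absolute difference per interval and comparison, and, outside that rule and chosen after their values were seen, the DIRAS3 tile from 68512001 (4 members), the RB1 tile from 48892001 (0 members), the ZDBF2 tile, and single cytosines of ZDBF2, NAP1L5 and TRAPPC9/PEG13. Members and lists were chosen with earlier results of these data known. The hg19 positions of the 11 other imprinted intervals came from general knowledge and were not checked against an annotation. Promoters were placed by requiring CpGs at all listed cytosines of their span. Alternatives were minimums of 10 and of 20 reads, levels weighted by reads, cytosines shared by only the 2 libraries compared, merged strands, unlisted cytosines filled in at 0 methylated reads (at the coverage of the nearest listed neighbour within 25 bp), scaled reads and a difference of 50 points.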

Additional observations from a re-analysis of the deposited data

Results flagged for a closer look

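At 3 intervals the difference between the genotypes (KO minus WT, mean over members) had opposite signs in the naive and primed states. At NAP1L5 it was -29.4 points in naive cells and 3.24 points in primed cells, over 4 members. At VTRNA2-1 it was 19.6 points in naive cells and -10.4 points in primed cells, over 41 members. At RB1 it was -3.44 points in naive cells and 3.98 points in primed cells, over 82 members. With at least 10 reads in every library the primed difference was 0.489 points at VTRNA2-1 and -0.737 points at RB1, and the naive difference at RB1 was 2.17 points. Each group was 1 library, so the difference between the states was not tested. The naive libraries also differed in medium, 2iLAF for KO and 5iLAF for WT.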

How the results depend on the processing

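For KO naive against KO primed, 66 of 297 members were called lower, where 18.2% of all cytosines were. With at least 10 reads it was 38 of 124 (30.6%), where 27.4% of all were. With at least 20 reads it was 2 of 6, where 30.3% were. At a difference of at least 50 points it was 33 of 297, where 9.65% were. With reads divided by the variance ratio between strands (2.63 to 4.52) it was 0 of 297, where 0.132% were. Of the members, 9 then passed an unadjusted p under 0.05 with a difference of at least 25 points. Merging the strands gave 3 of 306 members called higher, where 0.251% of all were. They were the TRAPPC9/PEG13 CpGs 141109413, 141109450 and 141109467, where KO naive listed only the plus strand. Minus-strand members nearby had 4 of 41 reads methylated in KO naive at 141109431 and 2 of 45 at 141109478. A strand without methylated reads is not listed, so the merged KO naive levels leave out any such strand and these 3 calls are not a comparison of like with like. The median interval difference of -19.0 points was over 5 intervals. It became -22.1 with the cytosines shared by the 2 libraries compared and -23.2 with unlisted cytosines filled in at 0. Both of these were over 7 intervals, as NAP1L5 and INPP5F then entered. For WT naive against WT primed, 67 of 297 members were called lower, where 16.2% of all cytosines were. With at least 10 reads it was 35 of 124 (28.2%), where 26.7% of all were. With at least 20 reads it was 3 of 6, where 32.7% were. With scaled reads it was 0 of 297, where 0.098% were. Of the members, 3 then passed an unadjusted p under 0.05 with a difference of at least 25 points. The median of -28.0 points became -24.1 with at least 10 reads. For KO primed against WT primed, the median of 2.47 points became -0.737 with at least 10 reads and -1.24 with read-weighted levels, and the 1 member called higher became 0 with at least 20 reads, merged strands or scaled reads. For KO naive against WT naive, the 1 called higher became 0 with at least 20 reads, shared cytosines or scaled reads. The called lower became 1 of 385 with shared cytosines (0.188% of all) and 2 of 430 with filling in (0.276% of all). The median of 4.31 points over 5 intervals became -3.16 over 8 with filling in, as NAP1L5, INPP5F and WRB then entered. The intervals of the main median were then at 6.26 (DIRAS3), -9.00 (ZDBF2), 18.97 (VTRNA2-1), 2.67 (RB1) and 2.77 points (TRAPPC9/PEG13). The cause of these changes was not tested. Of 132 single interval differences under alternatives 122 kept the sign of the reported value. Of 66 naive minus primed ones 64 stayed below 0, the exceptions being ZDBF2 with at least 20 reads, which left 1 cytosine (1.55 in KO, 9.34 in WT). The VTRNA2-1 difference between the naive libraries was 10.9 points with at least 10 reads, over 12 cytosines. No paired analysis was possible because each group held 1 library and the labels carry no replicate numbers.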
